A study of Mus musculus with 24 samples.

Results

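The mitochondrial citrate carrier gene Slc25a1 and 8 genes that make, move or use citrate around it were followed in the prefrontal cortex of mice with a chromosome 16 deletion. They were chosen by function, with earlier results of these data known. Slc25a1 lies in the deleted segment, and Cs, Acly, Idh1, Idh2, Slc13a5, Me1, Acaca and Slc25a11 do not. All 9 were measured, out of 18820 genes on the array. Heterozygous Df16(A)+/- males, called MUT, were compared with wild-type littermates, called WT, at 8 weeks of age on a C57BL6/J background, with 12 mice of each genotype. Every mutant lacks a single copy of many genes at once, so Slc25a1 is not lost alone. The segment corresponds to that of the human 22q11.2 microdeletion syndrome. Each mouse gave an Affymetrix array of total RNA from whole dissected tissue, with a deposited value on the log2 scale for every probe set.

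In mitochondria, citrate synthase joins acetyl-CoA to oxaloacetate, and the citrate formed either stays in the tricarboxylic acid cycle or leaves through the carrier encoded by Slc25a1, in exchange for malate. In the cytosol it is split again to acetyl-CoA, the building block of fatty acids and sterols and the donor for protein acetylation, while malate and isocitrate are used to make NADPH. Loss of function of the human carrier causes a severe neurometabolic disease with hydroxyglutaric aciduria. Neurons also take up citrate that astrocytes release.

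The arrays were alike, with pairwise correlations over all genes between 0.994 and 0.997. The mutants of replicates 9, 5 and 10 lay farthest out on the first principal component (14.7% of the variance), and results were recomputed without them. Of 18820 genes, 143 (0.76%) passed an adjusted p of 0.05 between genotypes, 43 of them lower in mutants (0.228%), and the median log2 difference of all genes was -0.001. The 8 measured markers of excitatory cortical neurons had mean levels between 8.18 and 13.37, and the median over all genes was 7.58; without detection calls this does not show presence. No marker of 9 lists for neurons, glia, endothelium, striatum and blood passed the test (limma), and 8 of the 62 distinct markers measured had an unadjusted p under 0.05. Of these 8, blood gave 3 of its 5 markers and striatum 3 of its 5, against 11.9% of all genes. All 5 blood markers were below 0, with a median log2 difference of -0.46. Without the mutants of replicates 5, 9 and 10, 4 of 5 were below 0 and 1 of 5 had an unadjusted p under 0.05 (limma). The gene means of these 5 markers ran from 5.76 to 7.46, under the median of 7.58 over all genes. Their mean level had a median of 6.01 in mutants (5.71 to 6.64) and 6.23 in wild types (6.04 to 8.78). Over the first 12 arrays by running number, 3 of 5 were below 0, with a median of -0.16 and none with an unadjusted p under 0.05. The measured blood markers were Alas2, Ngp, S100a8, S100a9 and Slc4a1, without the haemoglobin genes of the list. The striatal markers had a median of 0.10, with 2 of 5 below 0, and a mean level from 8.25 to 8.46 in mutants and from 8.21 to 8.39 in wild types. The part of blood or striatal RNA in the results was not tested. In whole tissue, fewer cells of a type and less RNA per cell cannot be told apart.

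Slc25a1 was the single member past the threshold, and it was lower in mutants. The level of Slc25a1 had a lowest, median and highest value of 8.97, 9.14 and 9.24 in the 12 mutants, against 9.90, 10.003 and 10.08 in the 12 wild types, on the log2 scale. The groups did not overlap: a gap of 0.67 separated the highest mutant from the lowest wild type. Mean levels were 9.12 ± 0.09 in mutants and 10 ± 0.05 in wild types (SD, n = 12 each), a log2 difference of -0.88 ± 0.03 (SE; limma, adjusted p = 3.42e-17). This is a fold of 0.545, with a 95% interval of 0.522 to 0.569. If array values kept RNA ratios in full, equal output from the copy that remains would give a log2 difference of -1. That lies below the 95% interval of -0.94 to -0.81. The part of the array scale and that of the remaining copy in this distance were not tested. The difference was -0.87 over the first 12 arrays by running number, which held 7 mutants, and -0.88 over the others, which held 5. Mutants of replicates 2, 1 and 10 had the lowest levels, while the mutants of replicates 5 and 9, outlying over all genes, were the highest and near the middle of their group.

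**Figure D1:**
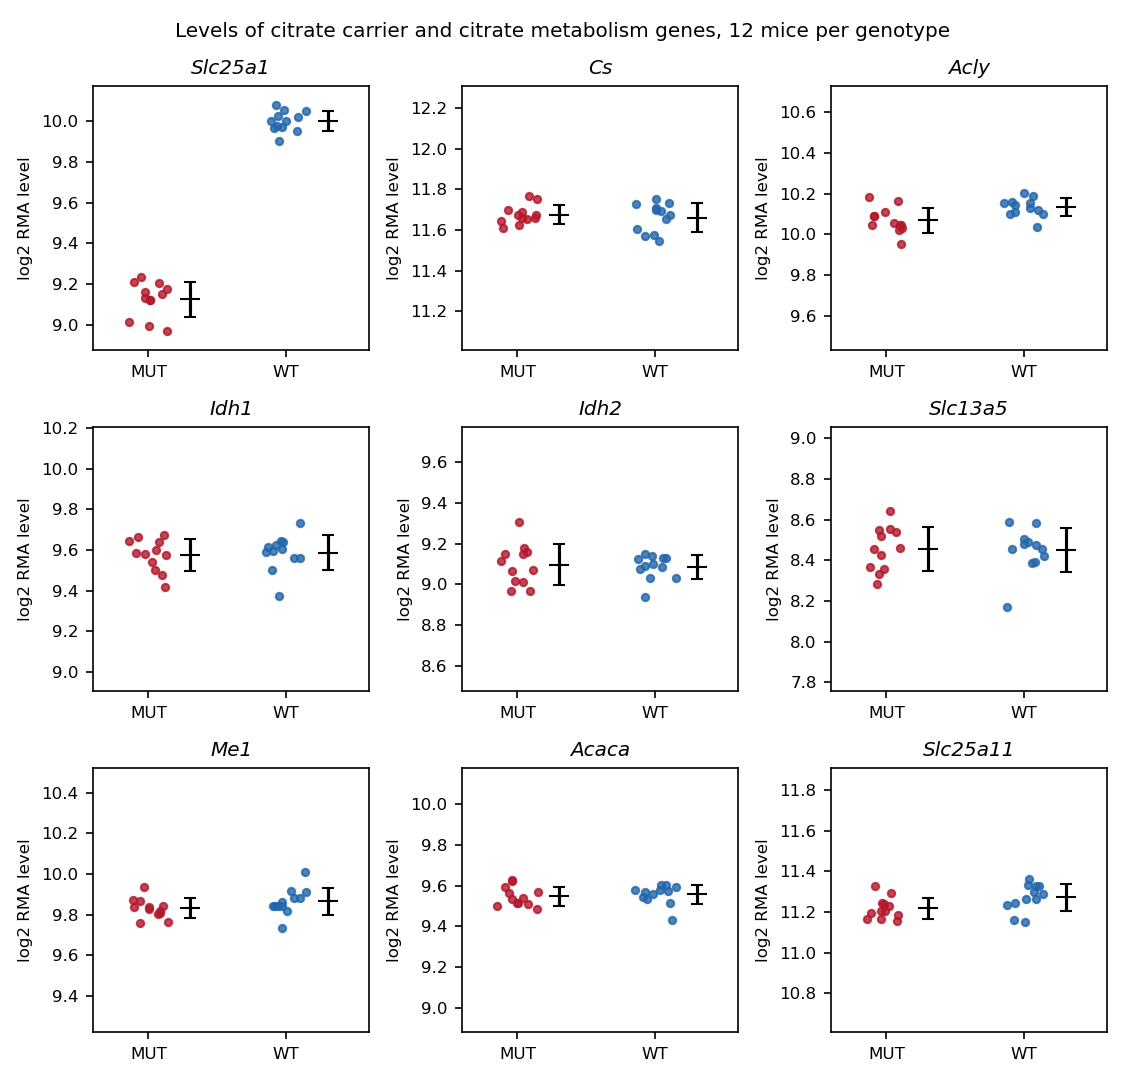
Levels of the 9 members in each mouse on the log2 scale (vertical axis, with the same span of units in every panel), with mutants (MUT) on the left and wild types (WT) on the right; bars give the mean and SD of 12 mice. The genotypes separate for Slc25a1, at 9.12 against 10 on average, and overlap for the other 8 genes.

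The promoter of Slc25a1 is shown because it is the regulatory sequence of the gene whose dose changed. The 250 bases before the annotated start, from RefSeq on GRCm38.p6, lie at chr16:17928220-17928469 on the minus strand and are written 5′ to 3′ in the direction of the gene. Capitals mark matches on either strand to the GC box GGGCGG, the CCAAT box CCAAT and the E-box CACGTG.

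Slc25a1: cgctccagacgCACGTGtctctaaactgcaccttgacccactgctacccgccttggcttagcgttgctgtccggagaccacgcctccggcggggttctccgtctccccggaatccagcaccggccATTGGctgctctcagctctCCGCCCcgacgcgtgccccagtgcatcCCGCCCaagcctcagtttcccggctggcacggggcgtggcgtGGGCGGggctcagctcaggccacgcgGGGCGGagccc

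It holds 4 GC boxes, the nearest ending 6 bases before the start, and 1 CCAAT box and 1 E-box, ending 121 and 234 bases before it. The window has 25 CpG dinucleotides, a number reached by 10.7% of 32851 promoters. The 9 members have 12 annotated promoters, of which 10 held a GC box, 7 a CCAAT box and 1, that of Slc25a1, the E-box. Over all promoters, 32.7% held a GC box, 33.8% a CCAAT box and 6.02% an E-box. All promoters were counted here, without matching to those of the members for CpG number or expression. The core TCACNCCAC of the sterol response element, the site known for SREBP factors, was found in no member's window and in 1.05% of all promoters. A match is a description of the letters and was not tested for binding.

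Among the 26 measured genes of the deletion, Slc25a1 had the lowest log2 difference, but its interval was shared by others. All 20 that passed were lower in mutants. Ufd1, a cofactor of protein degradation, had a difference of -0.88 ± 0.02, with a mean level of 9.17 in mutants and 10.04 in wild types. The 95% intervals of 8 of the other genes overlapped that of Slc25a1: Ufd1, 2510002D24Rik, Zdhhc8, Dgcr2, Tango2, Ranbp1, Mrpl40 and Prodh. Those of the other 11 genes that passed lay wholly nearer to 0, with differences from -0.73 for Ess2, a splicing-associated protein, to -0.27 for Gnb1l. They were Ess2, Rtn4r, Trmt2a, Txnrd2, Hira, Cldn5, Dgcr6, Arvcf, Dgcr8, Cdc45 and Gnb1l. Of these, Txnrd2, Cdc45 and Gnb1l had mean levels under the median of 7.58 over all genes, at 6.66, 5.95 and 5.99 in mutants. In wild types they had 7.30, 6.25 and 6.26. The others lay above that median in wild types, among them Dgcr8, with 8.26 in mutants, 8.79 in wild types and a difference of -0.54. The part of signal level in these differences was not tested. No interval among the 26 reached -1, and the part of the array scale in this was not tested.

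**Figure D2:**
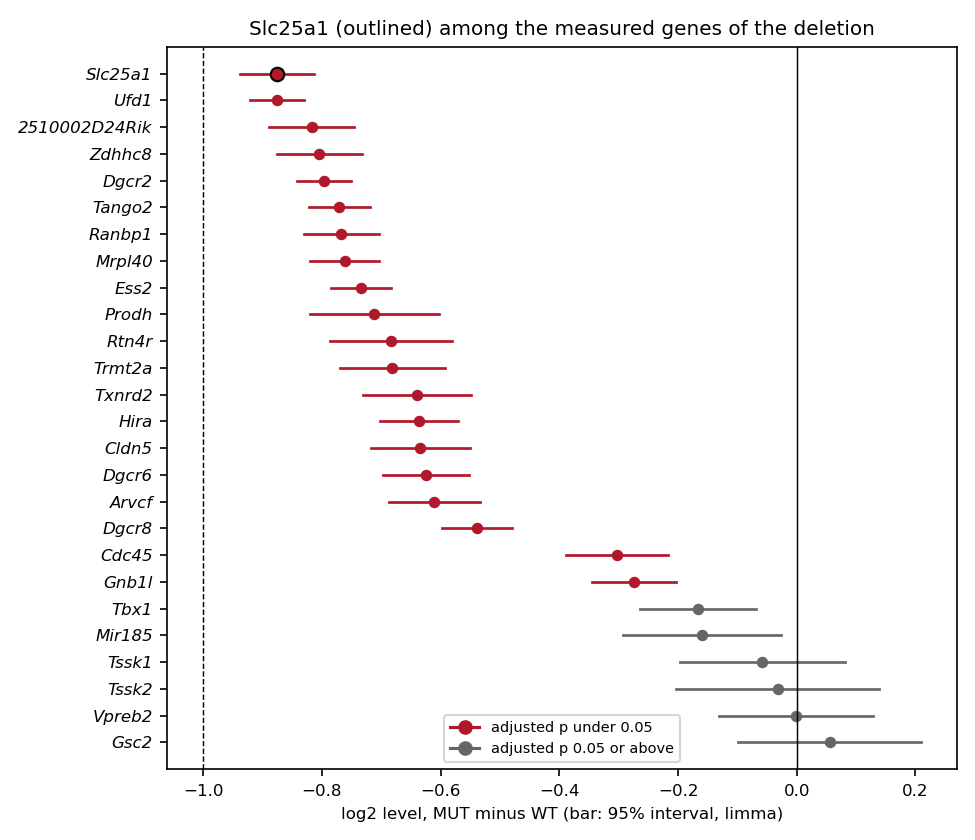
Log2 difference in level, MUT minus WT, of the 26 measured genes of the deletion (horizontal axis) with 95% intervals from limma. The dashed line at -1 is where equal output from the remaining copy would lie if array values kept RNA ratios in full. Slc25a1, outlined at the top with -0.88, has the lowest value, next to Ufd1.

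The genes directly beside Slc25a1 in the RefSeq table that were measured did not pass the test. Gsc2, a homeobox gene, had mean levels of 6.26 in mutants and 6.20 in wild types, a log2 difference of 0.06 ± 0.07 (adjusted p = 0.814). On the other side the nearest entry, the noncoding Gm41427, was not analysed here, and the next gene, Vpreb2, of the pre-B-cell receptor, had 5.74 in both genotypes (-0.001 ± 0.06, adjusted p = 0.996). Both lie within the deletion, and both had mean levels under the median of 7.58 over all genes. The array table has no detection call, so it does not say whether either gene was expressed.

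Cs, which makes citrate upstream of the carrier, did not pass. Its lowest, median and highest levels were 11.61, 11.66 and 11.77 in mutants, against 11.55, 11.68 and 11.75 in wild types. The groups overlapped over most of their range. The log2 difference was 0.01, with a 95% interval of -0.04 to 0.07 (adjusted p = 0.878), or a fold between 0.972 and 1.05. A second probe set is shared with the related gene Csl and was not used.

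Downstream in the cytosol, Acly, the enzyme that splits exported citrate into acetyl-CoA and oxaloacetate, had the lowest value among the members outside the deletion. Its levels were 9.95, 10.05 and 10.18 in mutants (lowest, median, highest), against 10.04, 10.14 and 10.20 in wild types. In 10 of 12 mutants the level lay below the wild-type median and in 3 below every wild type, so the groups overlapped. Means were 10.07 ± 0.06 in mutants and 10.13 ± 0.04 in wild types (SD, n = 12 each). The log2 difference of -0.06 ± 0.02 had an unadjusted p of 0.0169 but did not pass over all genes (limma, adjusted p = 0.304). Its 95% interval gives a fold between 0.923 and 0.991. Unadjusted p-values under 0.05 were found for 11.9% of all genes.

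Acaca, acetyl-CoA carboxylase, which turns that acetyl-CoA into malonyl-CoA for fatty acid synthesis, did not pass. Its levels were 9.48, 9.54 and 9.63 in mutants and 9.43, 9.57 and 9.60 in wild types (lowest, median, highest). The log2 difference was -0.01, with an interval of -0.06 to 0.04 (adjusted p = 0.914). The mutants lay inside the span of the wild types except at the upper end. A second, dimmer probe set annotated to Acaca had a difference of -0.07, with a wider interval of -0.20 to 0.05.

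Of the enzymes that make NADPH from citrate products, none passed. Me1, the cytosolic malic enzyme, had levels of 9.76, 9.83 and 9.94 in mutants and 9.73, 9.85 and 10.01 in wild types (lowest, median, highest), a log2 difference of -0.03 with an interval of -0.09 to 0.02 (adjusted p = 0.644). In 9 of 12 mutants the level was below the wild-type median, within the spread of the wild types. The second probe set of Me1 had a difference of -0.05 ± 0.02 (unadjusted p = 0.0415; adjusted p = 0.489 over all probe sets).

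Idh1, the cytosolic and peroxisomal isocitrate dehydrogenase, had levels of 9.42, 9.58 and 9.67 in mutants and 9.38, 9.60 and 9.73 in wild types (lowest, median, highest). The wild types spanned more than the mutants at both ends, and the log2 difference was -0.01 (interval -0.08 to 0.06, adjusted p = 0.923). Idh2, its mitochondrial counterpart, had levels of 8.97, 9.09 and 9.31 in mutants and 8.94, 9.09 and 9.15 in wild types. A log2 difference of 0.01 was measured (interval -0.06 to 0.08, adjusted p = 0.925). The medians of Idh2 were the same to 2 decimals, and the mutants spread wider, with an SD of 0.10 in mutants and 0.06 in wild types.

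Neither of the transporters outside the deletion passed. Slc13a5, the sodium-coupled importer of citrate at the plasma membrane, whose loss causes an epileptic encephalopathy in humans, had levels of 8.29, 8.46 and 8.64 in mutants and 8.17, 8.46 and 8.59 in wild types (lowest, median, highest). Its log2 difference was 0.01, with the widest interval among the members outside the deletion, -0.08 to 0.10 (adjusted p = 0.972). The spread between mice was also the widest of the 9 members, with SDs of 0.11 in both genotypes.

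Slc25a11, the carrier that exchanges oxoglutarate for malate in the malate-aspartate shuttle, had levels of 11.16, 11.20 and 11.33 in mutants and 11.15, 11.28 and 11.36 in wild types (lowest, median, highest). Its groups spanned almost the same range, although 10 of 12 mutants lay below the wild-type median. The log2 difference was -0.05 ± 0.03 (interval -0.11 to 0.002, adjusted p = 0.437). Over the first 12 arrays it was -0.12 (adjusted p = 0.269) and over the others 0.01. The difference between these values was 0.12 ± 0.05, with an unadjusted p of 0.0194 and an adjusted p of 0.813 over all genes (interaction term in limma, chosen after the data were seen).

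**Figure D3:**
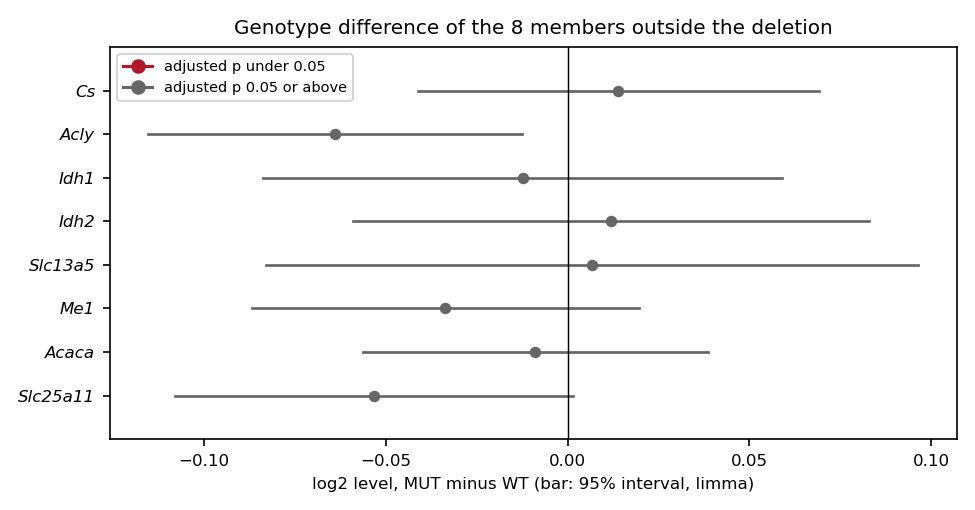
Log2 difference in level, MUT minus WT, of the 8 members outside the deletion (horizontal axis), with 95% intervals from limma. All 8 lie between -0.06 and 0.01, and the interval of Acly, -0.12 to -0.01, is the one that does not reach 0.

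Within a genotype, the level of Slc25a1 was set against that of each other member, which gave 16 relations over 12 mice each. None passed after Benjamini-Hochberg adjustment (permutation test with 100000 resamples, two-sided), and none had an unadjusted p under 0.05. The smallest p was for Cs in wild types, with Pearson's r = -0.523 (p = 0.0815, adjusted p = 0.718) and Spearman's rho = -0.517 (p = 0.0876, adjusted p = 0.757). In mutants r was -0.35 (p = 0.264, adjusted p = 0.718) and rho -0.336 (p = 0.285, adjusted p = 0.76). Leaving out the 2 mice farthest from the median of Slc25a1 gave r = -0.706 in mutants (permutation p = 0.0223, adjusted p = 0.178) and -0.302 in wild types (p = 0.39, adjusted p = 0.673), so the sizes depended on those mice.

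For Acly, r was 0.364 in mutants (p = 0.245) and 0.457 in wild types (p = 0.133), both with an adjusted p of 0.718. Its rho was 0.21 in mutants (p = 0.515, adjusted p = 0.763) and 0.455 in wild types (p = 0.142, adjusted p = 0.757). Without the 2 mice r was 0.362 in mutants and 0.784 in wild types, where the permutation p was 0.00714 and the adjusted p 0.114. The other 6 members had r between -0.175 and 0.272 in mutants and between -0.279 and 0.442 in wild types. Without the 2 mice these ran from -0.516, for Slc25a11, to 0.639, for Idh2 (permutation p = 0.0474, adjusted p = 0.253), in mutants and from -0.239 to 0.564 in wild types. No relation passed after adjustment with those mice left out. Over all 24 arrays, after the genotype mean was subtracted from each gene, the genes most like Slc25a1 were Maged2 (Pearson's r = 0.692), Bok (0.68), Ston1 (0.678), Pcbd1 (0.677) and Prr15 (0.676). They were picked from 18819 genes, all 24 values share their arrays and scaling, and none of these 5 genes passed the genotype test. Among the members, Acly had the highest r, 0.388, and Cs the lowest, -0.381.

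Slc25a1 belongs to the Slc25 family of carriers, whose members move metabolites across the inner membrane of mitochondria. Of 46 measured genes of the family, Slc25a1 was the only gene past the threshold, and the other 45 had log2 differences between -0.18 and 0.09. The lowest of these were Slc25a24, an ATP-magnesium/phosphate carrier, with mean levels of 6.39 in mutants and 6.57 in wild types (-0.18 ± 0.06, adjusted p = 0.236), and Slc25a32, a folate carrier, with 8.15 in mutants and 8.28 in wild types (-0.14 ± 0.04, adjusted p = 0.158). Slc25a5, an ADP/ATP carrier, had 12.26 in mutants and 12.32 in wild types (-0.06 ± 0.03, adjusted p = 0.328). Unadjusted p-values under 0.05 (limma) were found for 5 of the 45 (11.1%), against 11.9% of all genes. The median of the 45 was -0.03 and 37 of 45 (82.2%) were below 0, against 51% of all genes. Without the mutants of replicates 5, 9 and 10 the share was 71.1% (median -0.04), and after quantile normalization 73.3%. It was 77.8% over the first 12 arrays, against 56.6% of all genes, and 60% over the second 12 (median -0.02), against 46.3% of all genes. Among genes above the median level, 64.8% of all genes and 25 of 30 carriers were below 0. Over the second 12 arrays alone, Slc25a24 passed (-0.32 ± 0.06, adjusted p = 0.034), while over the first it had -0.10 (adjusted p = 0.785); the difference between these was not tested.

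**Figure D4:**
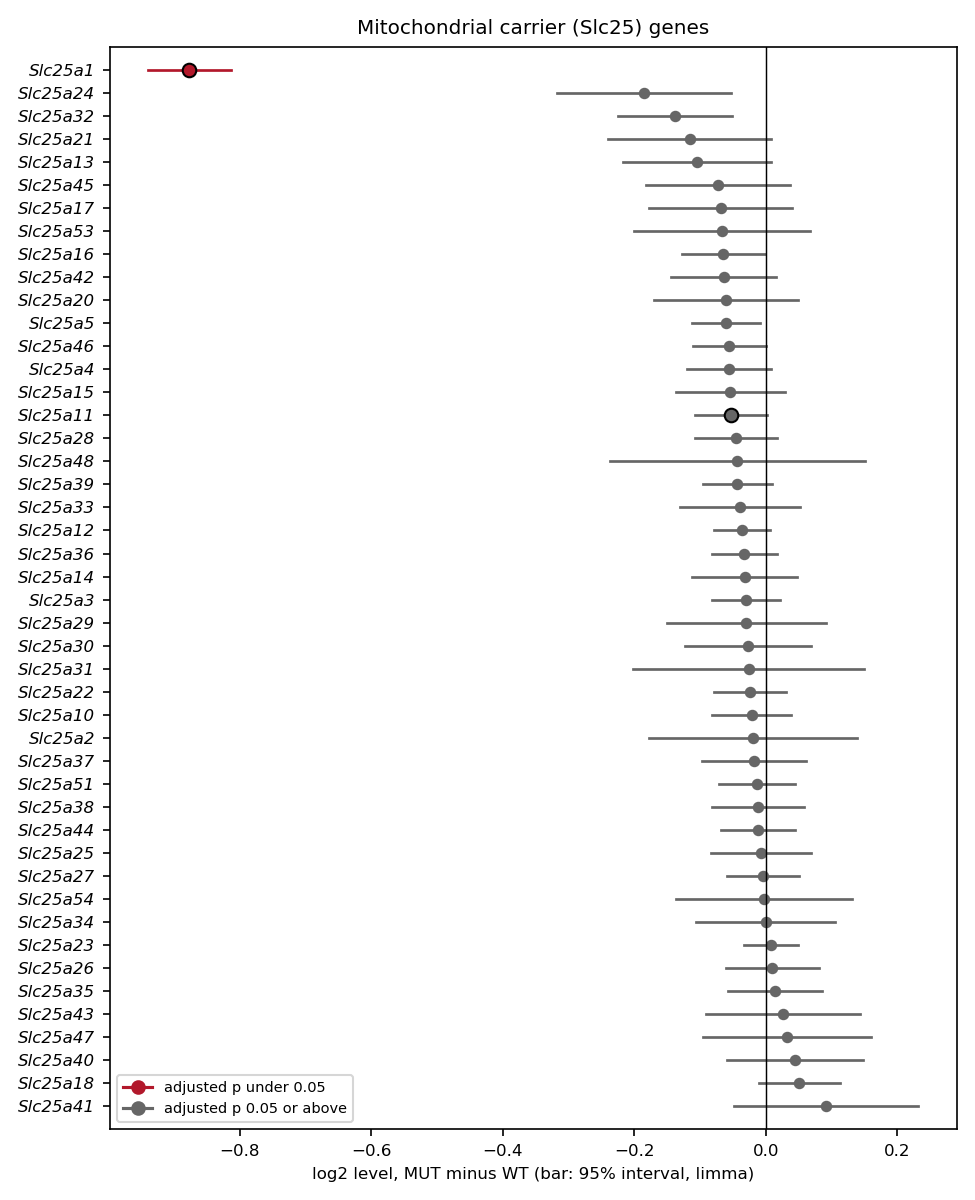
Log2 difference in level, MUT minus WT, of 46 mitochondrial carrier genes (horizontal axis), sorted, with 95% intervals from limma; Slc25a1 and Slc25a11 are outlined. Slc25a1 lies at -0.88 and the other 45 between -0.18 and 0.09.

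Across all pathway lists 150 genes outside the deletion were measured. None passed the test (limma), against 0.76% of all genes, and 16 (10.7%) had an unadjusted p under 0.05, against 11.9% of all genes. Of the 150 genes, 103 (68.7%) were below 0, against 51% of all genes. Among genes above the median level, 86 of 126 pathway genes (68.3%) were below 0, against 64.8% of all genes. The citrate, or tricarboxylic acid, cycle gave 17 measured genes, all above the median level, with a median log2 difference of -0.01, and 12 (70.6%) were below 0. The smallest p-values were those of Fh1, fumarase (-0.08 ± 0.03, adjusted p = 0.172), Sucla2, a succinyl-CoA synthetase subunit (-0.07 ± 0.03, adjusted p = 0.325), and Dld, the dihydrolipoamide dehydrogenase shared by 2-oxoacid dehydrogenase complexes (-0.07 ± 0.03, adjusted p = 0.331). Of 14 genes of pyruvate entry and anaplerosis, 9 (64.3%) were below 0, with a median of -0.01. Pdk3, a kinase that inhibits pyruvate dehydrogenase, had -0.06 ± 0.03, Pcx, pyruvate carboxylase, 0.05 ± 0.03, and Slc16a1, a lactate and pyruvate transporter, -0.07 ± 0.04.

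The malate-aspartate shuttle and glutamate list had 12 measured genes, of which 8 (66.7%) were below 0, with a median of -0.03, against 51% of all genes. Got2, the mitochondrial aspartate aminotransferase, had mean levels of 12.57 in mutants and 12.61 in wild types (-0.04 ± 0.02, adjusted p = 0.373). Slc25a13, an aspartate-glutamate carrier, had -0.10 ± 0.05 (adjusted p = 0.463). Of 10 genes of cytosolic citrate, malate and NADPH none had an unadjusted p under 0.05, and the median was -0.01; Me2 had -0.05 ± 0.04 and Mdh1, the cytosolic malate dehydrogenase, -0.02 ± 0.02. The 3 measured genes of hydroxyglutarate metabolism lay between -0.007, for the dehydrogenase gene D2hgdh, and 0.03, for Phgdh. Adhfe1, a hydroxyacid transhydrogenase, had 0.01 ± 0.03.

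Of 7 measured plasma membrane transporters of citrate and dicarboxylates, 3 (42.9%) were below 0, against 51% of all genes. Slc13a1, known as a sulfate transporter of kidney, had mean levels of 5.25 in mutants and 5.07 in wild types (0.18 ± 0.06, unadjusted p = 0.00959, adjusted p = 0.253). Slc13a2, a dicarboxylate and citrate transporter, had -0.06 ± 0.06 and Slc13a4 0.04 ± 0.10. Slc13a1 and Slc13a2 had mean levels under the median of all genes.

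Fatty acid synthesis and sterol synthesis, which both start from cytosolic acetyl-CoA, also gave no gene past the threshold. In fatty acid synthesis 7 of 17 were below 0, with a median of 0.006; beside Acly, the smallest p-values were those of Mlycd, malonyl-CoA decarboxylase (-0.08 ± 0.03, adjusted p = 0.303), and Elovl6, a fatty acid elongase (-0.08 ± 0.04, adjusted p = 0.464). In sterol synthesis 17 of 20 (85%) were below 0, with a median of -0.04. All 20 lay above the median level of all genes, where 64.8% of genes were below 0, against 51% of all genes. An unadjusted p under 0.05 (limma) was found for 2 of 20 (10%), against 11.9% of all genes. Hmgcs1, the synthase before the rate-limiting reductase of the pathway, had mean levels of 10.88 in mutants and 10.98 in wild types (-0.11 ± 0.03, adjusted p = 0.169). Hsd17b7 had -0.08 ± 0.04 and Insig2, a sterol sensor of the endoplasmic reticulum, -0.05 ± 0.03. Without the mutants of replicates 5, 9 and 10, 14 of 20 were below 0, with a median of -0.03.

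Markers of oligodendrocytes, the cells that make myelin and much of the brain's cholesterol, lay on the same side. All 10 measured were below 0 and none passed, with a median of -0.06. Their mean level ran from 8.57 to 9.01 in mutants and from 8.58 to 9.19 in wild types. Without the mutants of replicates 5, 9 and 10, 8 of 10 were below 0, with a median of -0.04. All 6 endothelial (1 of 6 without those mutants) and all 5 blood markers were also below 0. So were 4 of 6 markers of oligodendrocyte precursors, 4 of 7 of microglia and 2 of 5 of striatum. The counts were 3 of 8 for excitatory neurons, 2 of 8 for astrocytes and 1 of 7 for interneurons. The part of oligodendrocytes in the sterol values was not tested. Of 12 genes of acetyl-CoA use and protein acetylation, 7 (58.3%) were below 0, with a median of -0.01, against 51% of all genes. Hat1, a histone acetyltransferase, had mean levels of 8.26 in mutants and 8.38 in wild types (-0.11 ± 0.04, adjusted p = 0.27), Kat2b, another acetyltransferase, -0.08 ± 0.04, and Sirt2, a deacetylase, -0.03 ± 0.02.

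**Figure D5:**
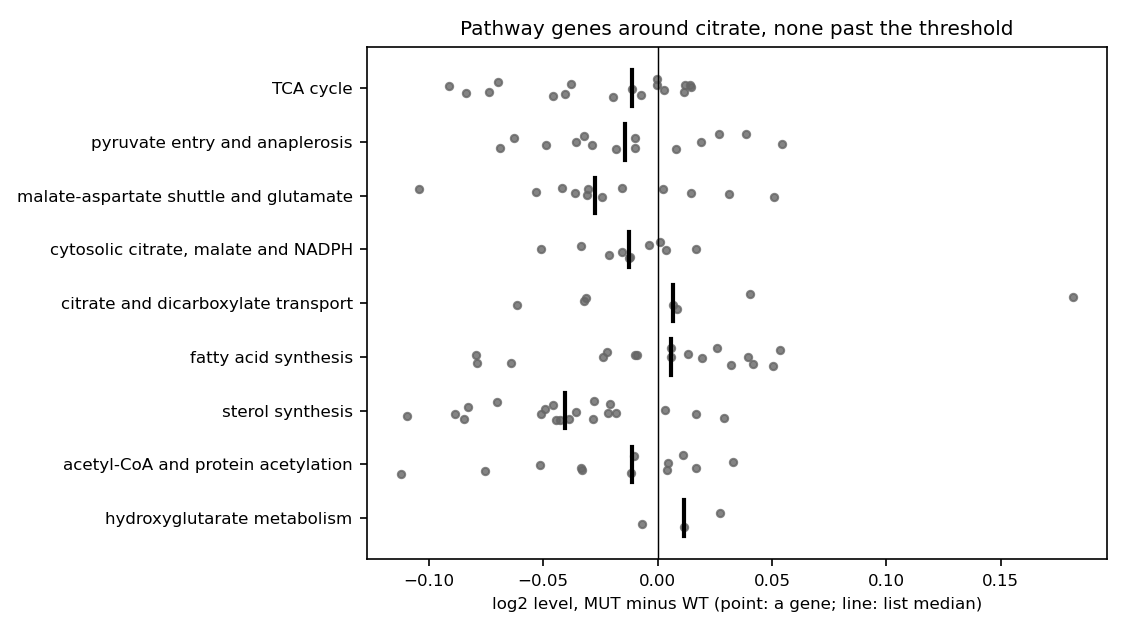
Log2 difference in level, MUT minus WT (horizontal axis), of the measured genes of 9 lists around citrate; each point is a gene and each vertical bar the median of its list. The medians lie between -0.04, for sterol synthesis, and 0.01, and no gene passed the threshold.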

How the data were processed

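The authors deposited 1 log2 expression value per probe set and mouse (35556 probe sets, 24 mice). Robust multi-array averaging (RMA) is named in the submitters' processing notes; version, settings and genome build were not stated in the sources at hand. The log2 unit of the deposited values was read from their range, 1.82 to 14.49. RMA compresses differences of dim probe sets, and the number of arrays limits the precision. Compression of differences of brighter probe sets, such as that of Slc25a1, was not measured. By the platform annotation, 21218 probe sets had 1 gene symbol, 1881 several and 12457 none listed. The brightest row per gene was used (18820 genes, 18790 matched to RefSeq).

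Genotypes were compared over all genes with limma 3.58.1 in R 4.3.3 (genotype as the sole term), with Benjamini-Hochberg adjustment, a threshold of 0.05 and moderated 95% intervals. The step was tested on simulated data with independent noise and planted differences larger than those of the members outside the deletion. That test therefore does not show how well differences as small as theirs are found. All members are named, and of each pathway list the genes that passed and the 3 with the smallest p. Members and lists were chosen with earlier results of these data known. Alternatives covered scaling, moderation, array weights, probe set choice, dim genes, a replicate block, array number and left-out mice. The genotypes share replicate numbers, which the labels do not tie to litters. The p-values of the genotype test set a difference against the spread between these mice within a genotype.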

Additional observations from a re-analysis of the deposited data

How the results depend on the processing

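Slc25a1 passed under all 36 alternatives, with log2 differences between -0.89 and -0.86, and the other 8 members passed under none. Leaving out each mouse in turn gave -0.89 to -0.86 for Slc25a1, 1 member and 20 genes of the deletion past the threshold each time, no pathway gene, and 119 to 157 genes in all. With 12 arrays instead of 24, the genes past the threshold numbered 58 over the first and 57 over the second, against 143, and 1 pathway gene, Slc25a24, passed over the second. With the replicate block, the log2 difference of Slc25a1 was -0.88 (adjusted p = 1.22e-10) and that of Acly -0.06 (adjusted p = 0.239). The block changed no call on a member or pathway gene. Deviations of mice with the same number correlated between -0.076 and 0.31, with a median of 0.096, against a median of -0.014 for mutants and wild types with different numbers.

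Signs of members near 0 changed while none passed, and the cause was not tested. Idh1 had 0.00106 after quantile normalization and 0.043 over the second 12 arrays. Acaca had 0.00365 after quantile normalization, 0.028 over the first 12 arrays and 0.000995 without mutants 5, 9 and 10. Slc13a5 had -0.014 over the first 12 arrays; Idh2 had -0.017 and Slc25a11 0.010 over the second. Leaving out each mouse gave -0.031 to 0.00203 for Idh1, -0.00731 to 0.024 for Idh2 and -0.019 to 0.022 for Slc13a5. Without detection calls, a limit on signal over background was not set.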
